A study of Mus musculus with 143 samples.

Results

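Of the 12897 genomic regions tested for reporter activity in the mouse T cell line P5424, 7600 belonged to the enhancer class Enh_K4me1_K27ac_PolII, and 29 of these (0.382%) started within 5000 bp of the start of a captured promoter region on the same chromosome. The rule that chose these 29 promoter-proximal enhancers used class names and positions alone and no activity values. Earlier results of these data were known when the choice was made. A captured promoter region here is 1 of the 1600 regions of the classes Pro_K4me3_K27ac_PolII (1100, called the promoter class below) and TSS_Random (500). The class names are those of the deposited tables; Enh and Pro are read as enhancer and promoter and the rest as histone marks or RNA polymerase II. The sources used here do not explain TSS_Random or name the cells in which the marks were measured.

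The series holds 143 samples, and 3 capSTARR-seq libraries are used here: 2 RNA replicates and 1 input library, all from P5424 with no treatment named. The other 140 samples were not analysed here. All values therefore come from 1 cell line. Whether the RNA replicates were separate cultures is not stated in the labels, so p-values measure only the spread between these 2 libraries, which may be technical.

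Enhancers are stretches of DNA that raise transcription from a promoter at a distance and usually carry the histone marks H3K4me1 and H3K27ac. Promoters of active genes carry H3K4me3 and H3K27ac, and RNA polymerase II is found at promoters and at many active enhancers. In capSTARR-seq, genomic fragments enriched by capture are placed downstream of the promoter of a reporter plasmid, so that a fragment with enhancer activity raises its own level in RNA. The assay reads each fragment outside its place in the chromosome, for promoters and enhancers alike. Activity is given as fold, which is FPKM in RNA over FPKM in input with 1 added to each, where FPKM is the usual read density, corrected for the length of the region and the depth of the library.

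The 29 enhancers lay on 13 chromosomes, with 4 each on chromosomes 1 and 5 and none on X. Each was 400 bp long. The distance between starts ran from 49 to 4951 bp, with a median of 3449 bp. The median was 345301 bp for all 7600 enhancers of the class. Only captured promoters were counted, so enhancers of the class beyond 5000 bp may lie close to promoters that were not captured. The nearest promoter was of the promoter class for 22 enhancers and of TSS_Random for 7. In all, 26 distinct promoter regions served as nearest neighbour, 20 of the promoter class and 6 of TSS_Random, which is 1.62% of those captured. On chromosomes 5, 8 and 12, 2 enhancers shared 1 promoter. Those 6 enhancers, 20.7% of the 29, were also the only ones with another enhancer of their class within 5000 bp, which 26.4% of the other 7571 had. Coordinates are those of the deposited tables, in build mm9. Gene names were filled for 0 regions in these tables and no mm9 annotation was used, so no region was assigned to a gene, exon or intron, and no sequence is shown.

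The enhancer at chr8:14995875-14996274 overlapped its promoter by 351 bp, and both regions held the same FPKM in all 3 libraries, 46.8 and 36.5 in the RNA replicates and 60.1 in the input. It therefore carries no information of its own against that promoter. Across the tables, 68 of 189 overlapping pairs of regions (36%) held identical values in all 3 libraries. The chromosome 8 pair is left out of the counts, medians and correlations of enhancers against promoters, which leaves 28 pairs, and stays in the limma fit over pairs.

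The 3 libraries held 8999732, 9583168 and 7199798 reads in the captured regions (RNA replicate 1, RNA replicate 2, input), recovered from the FPKM steps. The promoter-proximal enhancers had a median of 387 input reads each, against 265 for the other enhancers of the class. Input FPKM had a median of 29.2, against 72.1 in the promoter class. Of the 29, 5 had under 100 input reads.

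Most promoter-proximal enhancers showed RNA close to or below their input. The median fold was 0.966 in replicate 1 and 0.922 in replicate 2, against 0.857 and 0.862 in the other enhancers of the class and 0.657 and 0.679 in the 478 Random regions. RNA FPKM exceeded input FPKM in both replicates in 8 of the 29 (27.6%), beside 27% of all 12897 regions. It was below input in both in 11 (37.9%), beside 50.8% of all regions, and the replicates fell on opposite sides of the input in the other 10 (34.5%), beside 22.7% of the other enhancers of the class.

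**Figure D1:**
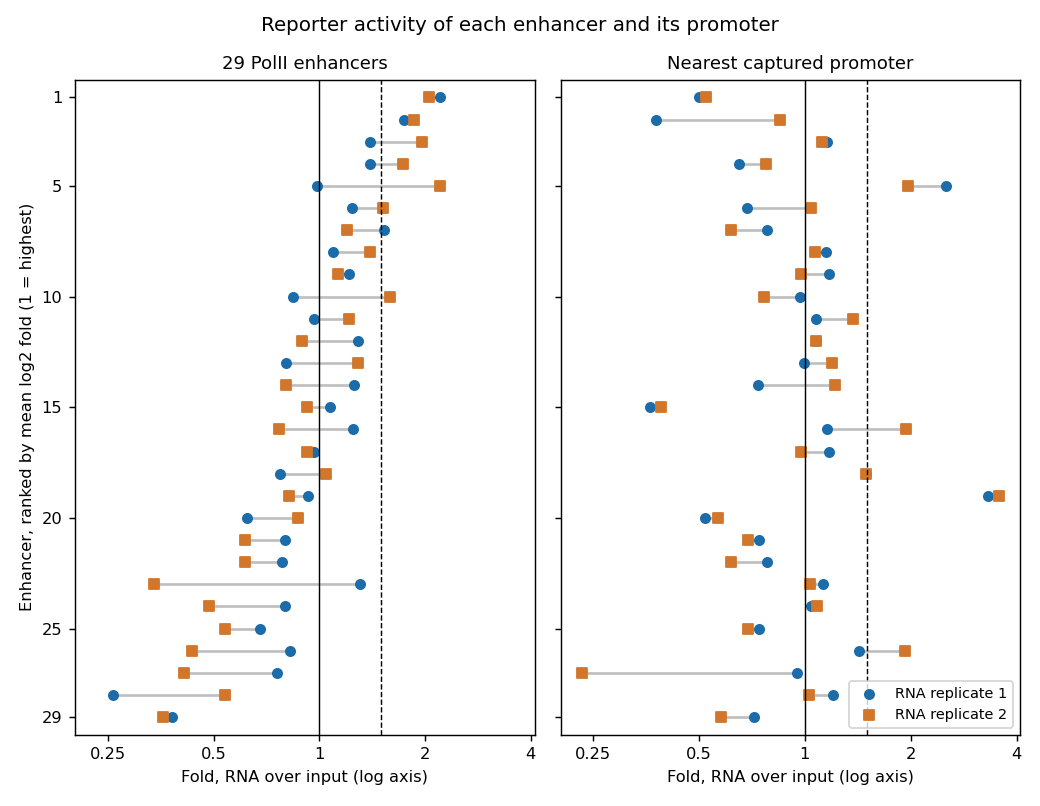
Fold of RNA over input (log axis) in RNA replicate 1 (circles) and replicate 2 (squares) for the 29 promoter-proximal enhancers, ranked by mean log2 fold, and for the promoter nearest to each; the solid line marks a fold of 1 and the dashed line 1.5. Ranks 1 and 2 are right of the dashed line in both replicates, and their promoters are left of the solid line; the strongest promoter, at folds of 3.32 and 3.57, belongs to the enhancer of rank 19.

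A fold of at least 1.5 in both replicates, used here as the definition of active, was reached by 2 of the 29 enhancers, 6.90% (Wilson 95% interval 1.91 to 22.0%, which treats regions as independent). The share over all regions, most of which are enhancers of this class, was 8.51%. Of the 7571 other enhancers of the class 671 (8.86%) were active, and of the 478 Random regions 6 (1.26%, Wilson 95% interval 0.577 to 2.71%). The share in the 29 therefore lay near that of all regions and of the class. Whether it differs from the Random share was not tested. In single replicates 3 of the 29 reached 1.5 in replicate 1 (10.3%) and 7 in replicate 2 (24.1%), against 13.6% and 14.6% of all regions. None of the 29 reached a fold of 3 in both replicates, beside 0.985% of all regions. The approximate 95% upper limit for that share, taken as 3 in 29 and not as a Wilson limit, is 10.3%. The authors' deposited class called 0 of the 29 active in both replicates (2.7% of all regions), 1 in replicate 1 (4.21%) and 1 in replicate 2 (4.34%).

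The most active promoter-proximal enhancer was at chr5:123282525-123282924, 2501 bp from its promoter. Its RNA stood at 79.6 and 73.7 FPKM over an input of 35.4, which is 470 input reads. Both RNA libraries were more than 2 times the input, at folds of 2.21 and 2.05. It was the enhancer that the authors' deposited class named active in replicate 1.

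The second active enhancer was at chr7:6090600-6090999, 1926 bp from its promoter. Its RNA stood at 81.7 and 87.3 FPKM over an input of 46.6, giving folds of 1.74 and 1.85. The replicates were closer to each other than either was to the input in both of these enhancers.

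Another 5 enhancers reached 1.5 in a single replicate with at least 100 input reads. At chr9:57617550-57617949, RNA was 34.7 and 49.4 FPKM over an input of 24.7, and the folds were 1.39 and 1.96. At chr15:98433475-98433874, RNA was 77.3 and 95.6 FPKM over 55.0, with folds of 1.40 and 1.73. At chr5:116479225-116479624, RNA was 36.4 and 45.0 FPKM over 29.2, with folds of 1.24 and 1.52. These 3 were above input in both libraries and higher in replicate 2. The enhancer at chr8:14994525-14994924 had the deepest input of the group, 2225 reads or 167.8 FPKM, with RNA at 256.1 and 201.1 FPKM. Its folds of 1.52 and 1.197 put it above 1.5 in replicate 1 only. The enhancer at chr17:34697875-34698274 went opposite ways in the replicates, with RNA at 36.0 and 69.1 FPKM around an input of 43.0.

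The remaining enhancer to reach 1.5 in 1 replicate, chr1:36978975-36979374, had 29 input reads. Its RNA was 2.13 and 6.01 FPKM over an input of 2.19, so its folds were 0.982 and 2.199. The authors' deposited class named it active in replicate 2. Its replicates differed by more than 2-fold, as did those of 2 more enhancers. These were chr1:169218475-169218874, with 18.3 and 4.03 FPKM over 13.8, and chr7:28717850-28718249, with 0 and 1.08 FPKM over 2.87. These 2 had 183 and 38 input reads. In the other enhancers of the class 13.6% differed by more than 2-fold between replicates, against 10.3% here.

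Between the active enhancers and the lowest ones lay the enhancers of the middle ranks. At chr16:96215825-96216224 RNA was 13.1 and 16.9 FPKM over 11.9, and at chr5:44339150-44339549 it was 130.4 and 121.9 FPKM over 107.4. Both were above input in both libraries. At chr17:35347025-35347424 RNA was 83.1 and 105.0 FPKM over 86.1, at chr11:116256725-116257124 it was 14.3 and 9.62 over 10.9, and at chr3:104574450-104574849 it was 15.1 and 24.9 over 19.1. These 3 fell on opposite sides of their input. The enhancers of ranks 14 to 23 had mean log2 folds from 0.0055 down to -0.59.

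Of these, the enhancers at chr4:131416875-131417274 (3.95 and 2.16 FPKM over 2.94), chr16:20127575-20127974 (8.65 and 4.93 over 6.71) and chr1:7083625-7084024 (40.2 and 54.6 over 52.3) were split around their input. The first 2 had 39 and 89 input reads. RNA was below input in both libraries at chr5:44339825-44340224, with 37.3 and 35.6 FPKM over 38.7, and at chr1:158851075-158851474, with 39.4 and 55.5 over 64.0. The 2 chromosome 12 enhancers that share a promoter were also below input in both, at rank 21 and, outside these middle ranks, at rank 25. At chr12:112905175-112905574 RNA was 13.3 and 10.04 FPKM over 17.0, and at chr12:112906475-112906874 it was 2.44 and 1.74 over 4.07, from 54 input reads. The latter was the 1 enhancer with 2 captured promoters in its window, a promoter-class region at 3651 bp and a TSS_Random region at 3874 bp, and both of those were below input too, at folds of 0.742 and 0.687 and of 0.684 and 0.632.

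The lowest promoter-proximal enhancer was at chr7:147399875-147400274, with RNA at 4.57 and 4.27 FPKM over an input of 13.6 (181 reads). Its folds of 0.380 and 0.360 lay close together and well below input in both libraries. Another 3 enhancers with at least 100 input reads had mean log2 folds below -0.6. RNA was 30.5 and 16.1 FPKM over 40.6 at chr12:103968525-103968924, 15.3 and 7.57 over 18.7 at chr11:78643750-78644149, and 7.89 and 4.39 over 10.1 at chr19:11585875-11586274. In each of the 3, RNA was below input in both libraries and lower in replicate 2.

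Each region was also tested against the median of the Random class with limma, a moderated linear model fitted here across all 12897 regions. Calls needed an adjusted p (Benjamini-Hochberg) below 0.05 together with at least 1.5 times that median. This asks for less than a fold of 1.5 over input, because the Random median was itself below input, at log2 folds of -0.61 and -0.56. Of the 29 enhancers, 8 were called higher (27.6%), beside 24.6% of all regions and 24.8% of the other enhancers of the class. Of the 478 Random regions themselves, 31 were called higher (6.49%). The 8 were those with RNA above input in both libraries. None was called lower (0% of all regions). None was below the Random median at an unadjusted limma p under 0.05, beside 339 of all regions, which is only 2.63%.

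The size of these differences ran from 0.81 to 1.67 on the log2 scale over the Random median. The chromosome 5 enhancer at 123282525 stood 1.67 ± 0.13 (SE) above it (limma adjusted p = 0.0032, with a range of 0.00014 to 0.040 over the alternatives). It was the only 1 of the 8 that was called under all 7 settings. The chromosome 7 enhancer at 6090600 stood 1.43 ± 0.14 above it (limma adjusted p = 0.0053, range 0.00041 to 0.067) and lost its call when values were not centred. Without a trend in limma 4 of the 29 were called (11.6% of all regions), with values centred on the median of all regions 2 (9.63%), and with values not centred 1 (3.78%). With the trend on input level 9 of the 29 were called, beside 24% of all regions. Among regions with at least 100 input reads 11 of 24 enhancers were called, beside 32.9% of all 11035 such regions. The input error is shared by both ratios and is not covered by these p-values.

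Set beside the other enhancers of the class, the promoter-proximal ones had a higher median log2 fold in both replicates, while the order of the shares depended on the call. They were lower for a fold of 1.5 in both replicates (6.90% against 8.86%) and in replicate 1 (10.3% against 14.4%), and higher in replicate 2 (24.1% against 15.3%) and for the limma calls (27.6% against 24.8%). The median of the mean log2 fold was -0.0083, against -0.25 in the other 7571, -0.25 in all regions, 0.064 in the promoter class, -0.0057 in TSS_Random and -0.57 in Random. The difference in medians from the other enhancers was 0.24 for the mean of both replicates, 0.17 in replicate 1 alone and 0.10 in replicate 2 alone. An exact two-sided sign-flip test over 2 replicates cannot give a p below 0.5, so none was run. Whether these groups differ was not tested, and the other enhancers may lie near promoters that were not captured.

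**Figure D2:**
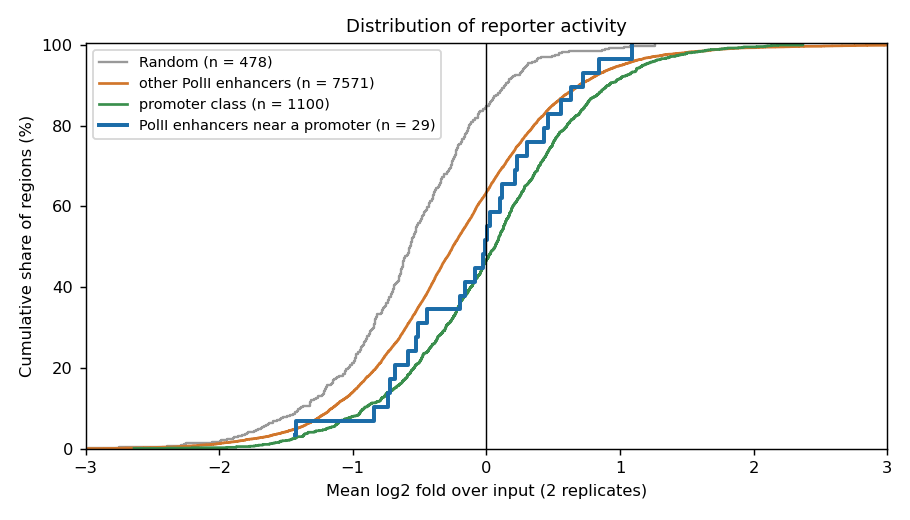
Cumulative share of regions (%) by mean log2 fold over input (2 replicates) for the 29 promoter-proximal enhancers, the 7571 other enhancers of their class, the promoter class (1100) and Random (478). The median of the 29, -0.0083, lies between those of the other enhancers (-0.25) and of the promoter class (0.064). Their highest value, 1.09, is below the highest of both, 3.42 and 2.37, which are far larger groups.

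The 29 ran from -1.44 to 1.09 in mean log2 fold and the 7571 from -3.63 to 3.42, where ranges of groups of such unequal size are not comparable. Input level differed between the groups, so the medians were also taken within 5 bins of all regions by input, equal in number. From the lowest to the highest bin, 5, 6, 3, 10 and 5 of the enhancers had medians 0.23 above, 0.31 below, 0.26 above, 0.35 above and 0.40 above those of the other enhancers. Both active ones were in the bin next to the highest. Across the 29, mean log2 fold had a Pearson r of 0.30 and a Spearman rho of 0.28 with input FPKM, which also enters the fold.

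Replicates scattered about as much as in the rest of the class. Log2 fold in replicate 1 and replicate 2 had a Pearson r of 0.574 and a Spearman rho of 0.571 over the 29 enhancers, against 0.639 and 0.635 over the other 7571. The regions share their libraries and the input, which enters both ratios. The SD of the difference between replicates was 0.668 against 0.721 on the log2 scale.

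Each enhancer was then set against its nearest captured promoter, a comparison that needs no centring because both were read in the same libraries. The enhancer had the higher fold in both replicates in 9 of the 28 pairs (32.1%) and the promoter in 9 (32.1%), and 10 pairs were split. The same over all 65 non-overlapping pairs of any enhancer class was 33.8% and 35.4%. The median difference over the 28 pairs was -0.015 on the log2 scale, with a range from -1.98 to 2.05, against -0.097 over the 65. The enhancer was at least 2-fold above its promoter in both replicates in 4 pairs (14.3%, beside 9.23% of the 65) and the promoter in 1 (3.57%, beside 10.8%).

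**Figure D3:**
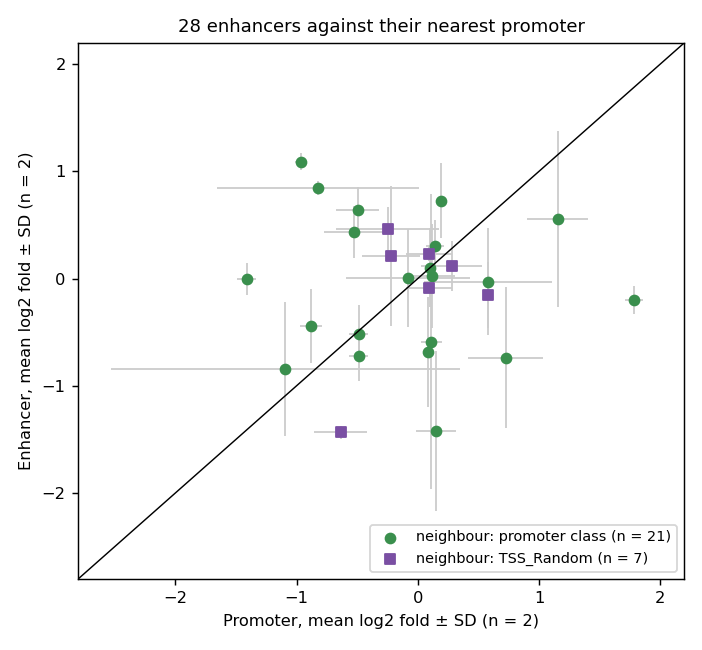
Mean log2 fold over input of 28 promoter-proximal enhancers (vertical) against that of their nearest captured promoter (horizontal), with the SD of 2 RNA replicates; circles are neighbours of the promoter class (21) and squares of TSS_Random (7), and the line marks equal values. Points scatter on both sides of the line; the enhancer farthest above it has an enhancer minus promoter difference of 2.05 and the one farthest below it of -1.98.

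The widest difference in favour of the enhancer was at chr5:123282525-123282924. Its promoter, chr5:123285026-123285425 of the promoter class, had RNA at 14.7 and 15.4 FPKM over an input of 30.4, so that its RNA was about as far below input as that of the enhancer was above it. The enhancer minus promoter difference was 2.05 ± 0.12 (SD, n = 2). At chr4:155120725-155121124, 649 bp from its promoter, the enhancer was near its input, with RNA at 39.6 and 34.1 FPKM over 37.0. Its promoter, chr4:155120076-155120475, had 5.76 and 6.31 FPKM over 17.7, and the difference was 1.40 ± 0.23.

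The other 3 pairs named by the rule had the enhancer higher in both replicates by smaller amounts. At chr15:98433475-98433874 the difference was 1.13 ± 0.04, the promoter chr15:98437876-98438275 having 34.1 and 40.7 FPKM over 53.0. At chr8:14994525-14994924 it was 0.96 ± 0.0011, against the promoter at chr8:14995826-14996225 described above, and at chr5:116479225-116479624 it was 0.71 ± 0.22. With only 2 values, a small SD may arise by accident. The fourth pair past 2-fold, chr7:6090600-6090999, had a promoter with 22 input reads, where RNA was 0 and 1.26 FPKM over 1.66, so its difference of 1.67 ± 0.77 rests on few reads.

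In the opposite direction the widest difference was at chr16:23103175-23103574, where the promoter was the active element. The promoter, chr16:23107276-23107675, had 285.5 and 307.1 FPKM over an input of 85.2, folds of 3.32 and 3.57, and was active in both replicates in the authors' deposited class. The enhancer had 32.7 and 28.6 FPKM over 35.2, below input in both libraries, and the difference was -1.98 ± 0.21 (SD, n = 2). At chr11:78643750-78644149 the difference was -1.46 ± 0.96 and the promoter, chr11:78639776-78640175, had 169.8 and 229.9 FPKM over 119.1. The other named pairs in this direction were narrower, at -0.80 ± 0.16 for chr7:147399875-147400274, -0.77 ± 0.55 for chr19:11585875-11586274 and -0.74 ± 0.30 for chr1:7083625-7084024.

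No pair passed a limma test of the enhancer minus promoter difference, fitted over all 66 pairs of any enhancer class (0% called in either direction). The smallest limma adjusted p was 0.096. At an unadjusted limma p under 0.05 there were 6 pairs of the 29 with the enhancer higher and 2 with the promoter higher, beside 12 (18.2%) and 11 (16.7%) of all 66. With the variance trend of limma placed on input level, 3 of the 29 passed with the enhancer higher, beside 4 of all 66 (6.06%). With the promoter higher 1 of the 29 passed, beside 3 of all 66 (4.55%). The pairs of the 29 that passed were the chromosome 5 pair at 123282525, the chromosome 15 pair, the chromosome 8 pair at 14994525 and, with the promoter higher, the chromosome 16 pair at 23103175. Each had a limma adjusted p of 0.024 under that setting, and up to 0.14 or 0.15 under the others.

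Enhancers and promoters were also compared for whether they were high together. Across the 28 pairs the mean log2 folds had a Pearson r of -0.020 and a Spearman rho of -0.047, where 4 enhancers share 2 promoters. In 2 pairs only the enhancer was active, in 2 only the promoter, in 24 neither and in 0 both. The active promoters were chr16:23107276-23107675 and chr1:36981376-36981775, the latter at 40.0 and 31.1 FPKM over 15.3. Among the 26 neighbouring promoters 2 were active (7.69%), beside 16.2% of the other 1574 promoter and TSS_Random regions, and their median log2 fold was 0.089 against 0.030. This difference was not tested.

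The class of the neighbouring promoter gave small groups. The 22 enhancers next to the promoter class had a median log2 fold of -0.018 and held both active regions, and the 7 next to TSS_Random had a median of 0.12 and none. The side on which the promoter lay made 14 enhancers with the promoter at the higher coordinate, with a median of 0.063, and 15 with it at the lower one, with a median of -0.028. Both active enhancers were among the 14 and 0 of the 15 were active. Strand was not assigned, so these sides are not upstream and downstream. Neither split was tested.

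Distance within the window showed no clear order. The median log2 fold was -0.018 for 6 enhancers up to 2000 bp from the promoter, 0.10 for 5 from 2000 to 3000 bp, -0.44 for 9 from 3000 to 4000 bp and -0.16 for 9 from 4000 to 5000 bp. The 2 active ones were at 1926 and 2501 bp. Over the 29, distance and mean log2 fold had a Pearson r and a Spearman rho of -0.13 each.

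**Figure D4:**
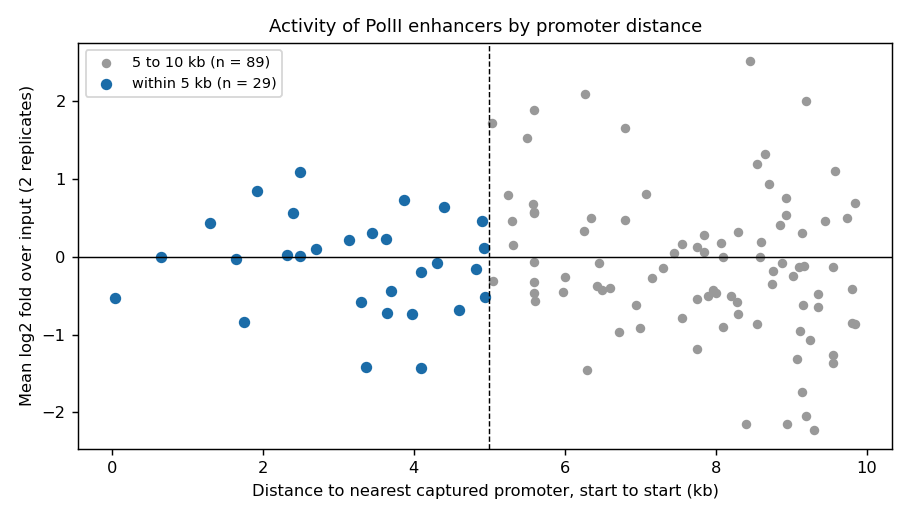
Mean log2 fold over input (2 replicates) of the 29 promoter-proximal enhancers and of the 89 enhancers of the class at 5 to 10 kb, by distance between starts to the nearest captured promoter (kb); the dashed line marks 5 kb. The 29 span -1.44 to 1.09, and the 89, a larger group, reach higher, to 2.51, and lower, to -2.23.

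The enhancers just beyond the window included more active regions, a difference that was not tested. Of the 89 enhancers of the class at 5000 to 10000 bp, 13 were active (14.6%, Wilson 95% interval 8.74 to 23.4%) and 4 reached a fold of 3 in both replicates (4.49%). Their median log2 fold was -0.15. At 10000 to 20000 bp 14 of 197 were active (7.11%), and at 20000 to 50000 bp 62 of 617 (10%). The share of active enhancers thus moved with the limit, to 16.7% of 6 enhancers at 2000 bp and 12.7% at 10000 bp.

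The 4 enhancers just inside the limit were at 4824, 4908, 4929 and 4951 bp, with mean log2 folds of -0.16, 0.46, 0.12 and -0.51. The 4 just outside, at 5036, 5049, 5251 and 5301 bp, had 1.72, -0.32, 0.79 and 0.46. The first of these, chr4:119411225-119411624, had RNA at 31.3 and 23.0 FPKM over an input of 7.47, and it and the third, chr7:87463575-87463974, were active. None of the 4 inside was.

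Enhancers of the classes without RNA polymerase II were also captured in the same window. Of 23 Enh_K4me1_K27ac regions within 5000 bp of a captured promoter 2 were active (8.70%), against 5.18% of the 2623 farther away, with median log2 folds of -0.17 and -0.34. Of 14 Enh_K4me1 regions 1 was active (7.14%), against 3.60% of 556, with medians of -0.35 and -0.35. With 1 or 2 active regions in each of the near groups, no order among the 3 enhancer classes can be read from these shares.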

How the data were processed

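The authors deposited 1 table per RNA replicate with FPKM of the RNA and input libraries, a fold (ratio) and an active or inactive class, per the file headers. The ratio equals FPKM plus 1 in RNA over input, to within 4.8e-14, and is not centred. Both tables hold the same input values. The submitters' processing notes list Bowtie2, TopHat2, Bowtie 1.2.2 and build mm9 without roles; the counting tool and filters are not given in the sources used here. In 400 bp regions 100% of FPKM were whole numbers of reads (tolerance 0.1), which gave the read numbers used for precision and for the minimum of 100 input reads.

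Members and lists were chosen with earlier results of these data known. Regions were tested with limma 3.58.1 in R 4.3.3 (intercept only, eBayes with a mean trend, two-sided) on log2 values with a pseudocount of 1 FPKM, centred on the Random median of each replicate; the median of all regions lay 0.38 and 0.34 (log2) above that centre. The mean trend of such a fit follows the tested fold itself. Pairs were tested without a trend. Both fits were also run on simulated reads with known changes, a fixed spread setting and no error in the input. Those settings are simpler than these data, so that run does not show how well the fits hold here. Wilson intervals cover counting error only. Regions named were the 12 highest and 4 lowest members with at least 100 input reads, 5 non-overlapping pairs each way of the same sign in both replicates, and 4 regions on each side of the 5000 bp limit. Other members and promoters were named after their values were seen, for low input, overlap, activity or a 2-fold difference. No promoter had more than 1 active member. Alternatives changed the pseudocount (0.1 FPKM), centre, trend, input minimum, distance, neighbour class and call rule. The labels give no batch for these libraries.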

Additional observations from a re-analysis of the deposited data

How the results depend on the processing

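No paired analysis was possible because both ratios use the same input and the replicate numbers occur in 1 group only. With either replicate left out limma has no spread to estimate, so it was not run that way. The share of active promoter-proximal enhancers, 6.90%, became 16.7% at a distance of 2000 bp, 12.7% at 10000 bp, 0% with either the authors' deposited class or a fold of 3, and 10.3% to 24.1% with 1 replicate left out; single replicates differed by an SD of 9.75 points, more than the share itself. That of the other enhancers of the class, 8.86%, became 1.27% at a fold of 3, 3.05% with the authors' deposited class, 9.55% with a pseudocount of 0.1 FPKM, and 14.4% to 15.3% with 1 replicate left out. The difference in medians, 0.243, became 0.185 as the mean within 5 bins of input, and 0.0972 to 0.173 with 1 replicate left out. The 8 limma calls became 4 without a trend, 2 centred on all regions and 1 not centred. The Random median had log2 folds of -0.61 and -0.56, and the median of all regions lay 0.38 and 0.34 above it. Both changes of centre therefore lower every log2 fold over the centre by a constant in each replicate. Why fewer were called without a trend was not tested. Pair calls went from 0 to 3 with the enhancer higher and 1 with the promoter higher when the trend was on input. Of 169 limma results for single enhancers under an alternative, 146 kept their side of the threshold, 18 lost a call and 5 gained one. None (0) changed sign after a call. All 18 losses fell on the 8 enhancers called in the main setting, and 7 of those 8 lost the call when values were not centred. The other enhancers had no call to lose, so the 146 do not measure how stable the calls were. With 29 regions, 2 RNA libraries and 1 input, the number of regions limits the precision of the shares.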
